A study of Mus musculus with 12 samples.

Results

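The genes described here are 31 genes of cholesterol synthesis and handling, taken by symbol from a list of synthesis enzymes, regulators of sterol-responsive transcription and genes of sterol transport, storage and removal. All 31 were found among the 52634 genes of the deposited count table. They were sorted by role into 8 genes of the mevalonate and isoprenoid steps, 12 of the steps that make squalene and turn it into cholesterol, 5 regulators and 6 handling genes. RNA was sequenced from dorsal hippocampus of mouse pups at postnatal day 7, in 12 libraries that each came from tissue pooled from 4 mice. Controls carry loxP-flanked copies of Slc6a4, the serotonin transporter gene (SERTfl/fl), and in the other genotype, SERTPyramid, this gene is deleted conditionally. Both names are spelled as in the genotype labels, and the sample titles write SERTfl/fll and SERTPyramid∆. Each combination of genotype and labelled sex has 3 libraries. The genotype's name and the series title refer to pyramidal neurons of hippocampal field CA3, but no label names the driver line or says whether pools shared litters. The p-values therefore reflect spread among these 12 libraries, which may be partly technical.

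Brain cells make nearly all of their own cholesterol, because lipoproteins of the blood do not cross the blood-brain barrier. Acetyl-CoA is built up through mevalonate and isoprenoid diphosphates to squalene, which is closed into lanosterol and trimmed to cholesterol. When membrane sterol falls, the escort protein SCAP carries the SREBP transcription factors to the Golgi, where they are cut and released to switch on the enzyme genes, and INSIG proteins hold SCAP back when sterol is plentiful. In the developing brain neurons synthesise sterol themselves, astrocytes export it on particles that carry apolipoprotein E, and oligodendrocytes need large amounts for myelin.

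Library totals ran from 18747249 to 25522347 counts. Counts of Xist, the RNA of the inactive X chromosome, and summed counts of 4 Y-linked genes went against the labelled sex in 10 of 12 libraries, all except control replicate 1 of each labelled sex. Female and male therefore name labels here, and the genotype comparisons were repeated without those 2 libraries. By these transcripts each control group mixed both sexes and each SERTPyramid group held 1. Control replicate 3 labelled female had 527 counts of Xist beside 2849 Y-linked counts. The other libraries high in Y-linked counts had 13 to 59 counts of Xist. Slc6a4 had 0 to 17 counts in every library, too few to check the genotype labels. The hippocampal pyramidal markers were abundant, with 7 genes that summed to 3901 to 4942 CPM (CPM gives a gene's count scaled to a common library size, here by the TMM method). Oligodendrocyte markers summed to 177 to 268 CPM, and Opalin, a marker of mature oligodendrocytes, had 0 to 3 counts. In such bulk tissue fewer cells of a type and less RNA per cell cannot be told apart.

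All 31 genes passed the low-count filter, and the lowest value of any of them was 6.38 CPM, of Fdps in control replicate 3 labelled male. Per kilobase of exon, the scale on which levels of different genes were compared, Apoe stood highest at 574 ± 26.7 CPM per kilobase (SD, n = 12). It encodes the main apolipoprotein of the brain and lies on chromosome 7 (19696109 to 19699188, minus strand, GRCm38). Hmgcs1, which makes HMG-CoA at the start of the mevalonate route (chromosome 13, 119690379 to 119708260, plus strand), followed at 120 ± 3.08 CPM per kilobase. The regulator Srebf2, the SREBP that chiefly drives sterol enzymes, followed at 53.8 ± 1.80 CPM per kilobase. Its relative Srebf1, tied more to fatty acid synthesis (chromosome 11, 60199089 to 60222581, minus strand), had 12.2 ± 0.779 CPM per kilobase. These 4 levels were separated by more than their spread over the libraries.

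Among the mevalonate genes, the decarboxylase gene Mvd followed Hmgcs1 at 40.0 ± 2.22 CPM per kilobase. The kinase gene Pmvk (23.0 ± 1.42), the thiolase gene Acat2 (21.5 ± 1.35) and the kinase gene Mvk (19.2 ± 0.783) came next, and the ranges of neighbours in this order overlapped. Ggps1, which leads off to geranylgeranyl groups for proteins, had 7.04 ± 0.342 CPM per kilobase. The isomerase gene Idi1 (2.60 ± 0.173) and the farnesyl diphosphate synthase gene Fdps (1.77 ± 0.170) were the lowest of this role. Of their annotated transcript sequence, 25.3% of the 50-base words of Idi1 also occur in transcripts of 5 other annotated genes and 26.2% of those of Fdps in transcripts of 8. The labels do not say how reads that fit several genes were counted, so the levels of Idi1 and Fdps are uncertain, and the part of shared sequence in them was not tested. Acat2 (39.1%, shared with Acat3 and Tcp1) and Fdft1 (26.5%) also share sequence with other genes.

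From squalene synthesis on, Sqle, whose product oxidises squalene (chromosome 15, 59315077 to 59331192, plus strand), was the highest at 37.8 ± 1.38 CPM per kilobase. Next were the lanosterol demethylase gene Cyp51 at 32.3 ± 1.25 and the squalene synthase gene Fdft1 at 26.8 ± 1.08 CPM per kilobase. The desaturase gene Sc5d (17.0 ± 1.11), the reductase gene Dhcr7 (16.1 ± 0.501) and the dehydrogenase gene Nsdhl (15.5 ± 0.416) lay together, and the ranges of neighbours overlapped. Msmo1 had 12.4 ± 0.469, Tm7sf2 8.70 ± 0.612, the cyclase gene Lss 7.31 ± 0.333, Hsd17b7 7.06 ± 0.227, the isomerase gene Ebp 5.03 ± 0.316 and the reductase gene Lbr 3.40 ± 0.171 CPM per kilobase. Tm7sf2 and Lbr encode reductases for the same step.

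Of the remaining regulators, Insig1 had 20.7 ± 1.15, Scap 18.4 ± 0.570 and Insig2 7.08 ± 0.400 CPM per kilobase. Among handling genes, Cyp46a1, the neuronal hydroxylase that turns cholesterol into an exportable oxysterol, had 19.1 ± 1.21 CPM per kilobase. The sterol exporter gene Abca1 had 12.8 ± 0.963, the sterol carrier gene Stard4 8.46 ± 0.541, the lysosomal exporter gene Npc1 5.20 ± 0.214 and the esterifying enzyme gene Soat1 2.52 ± 0.182 CPM per kilobase. The order depends on the length used. With the longest transcript in place of merged exons, 7 levels moved by over 1.5 times, to 33.2 CPM per kilobase for Dhcr7, 25.7 for Msmo1, 32.3 for Scap, 29.7 for Cyp46a1, 11.3 for Lss, 10.2 for Npc1 and 871 for Apoe. On that scale Dhcr7 stood above Fdft1 (30.6), Msmo1 above Nsdhl (20.4) and Sc5d (17.3), Scap above Insig1 (23.7) and Npc1 above Stard4 (9.27), while Apoe, Hmgcs1 and Srebf2 still led.

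**Figure D1:**
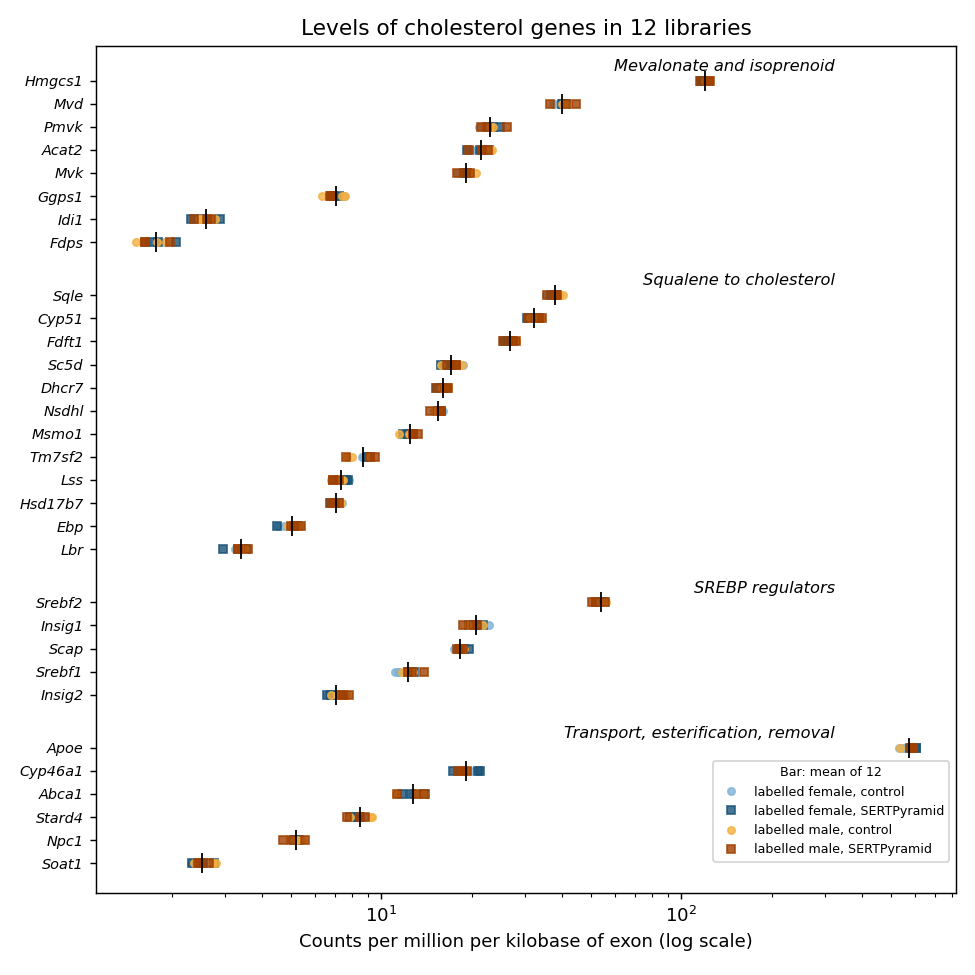
Level of each gene in CPM per kilobase of exon (log axis) in the 12 libraries, sorted by role. Points are libraries coloured by genotype and labelled sex, and the vertical bar is the mean of 12; Apoe stands at 574 and Hmgcs1 at 120, while Fdps, the lowest, stands at 1.77.

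The genes varied little, beside a background that was not matched for expression. By mean log2 CPM the 31 ranged from the 38.3 percentile of all genes tested (Fdps) to the 99.7 percentile (Apoe). Whether they varied less than other genes of like level was not tested. On the log2 CPM scale, the SD of libraries around their group means was 0.067 for the median gene of the 31, against 0.117 for the median of all 17631 genes tested. It was lowest for Hmgcs1 (0.035) and highest for Fdps (0.151), the gene with the fewest counts. From the lowest to the highest of the 12 libraries the level spanned 1.08-fold for Hmgcs1, 1.13-fold for Sqle, 1.15-fold for Apoe, 1.25-fold for Abca1 and 1.37-fold for Fdps.

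Genotypes were first compared among the 6 libraries labelled female. In edgeR 0 of the 31 reached the threshold, an adjusted p of 0.05, and 0% of all 17631 genes tested did. DESeq2 and limma voom on the same 12 libraries also called 0 of the 31. Apoe and Srebf1 had the smallest p of the 31, both higher in SERTPyramid. Of the 20 synthesis genes 11 were above 0 and 9 below, from -0.06 for Idi1 to 0.12 for Pmvk on the log2 scale, and all 31 genes ran from -0.07 to 0.15. Their median was 0.01, beside -0.0004 for all genes tested. At an unadjusted p under 0.05 there were 2 of 31 genes (6.45%), beside 8.04% of all genes tested, so the share is near the background.

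Apoe had 1158, 1190 and 1132 CPM in control replicates 1 to 3 labelled female and 1239, 1298 and 1293 CPM in the SERTPyramid replicates. All 3 SERTPyramid libraries lay above all 3 controls. The means were 1160 ± 29.0 and 1277 ± 32.6 CPM (SD, n = 3), and the log2 fold difference was 0.14 ± 0.05 (SE, edgeR adjusted p = 0.530). Srebf1 had 62.4, 64.2 and 64.2 CPM in the controls and 72.6, 70.0 and 69.3 CPM in SERTPyramid. Its groups also did not overlap. Its log2 fold difference was 0.15 ± 0.05 (SE, edgeR adjusted p = 0.542), with means of 63.6 ± 1.08 and 70.6 ± 1.75 CPM (SD, n = 3). Without control replicate 1 of both labelled sexes the log2 fold changes were 0.14 for each gene, with adjusted p of 0.767 and 0.773 in edgeR.

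Pmvk, the phosphomevalonate kinase gene, had 36.2, 38.6 and 37.1 CPM in controls labelled female and 40.3, 39.0 and 42.6 CPM in SERTPyramid, a log2 fold difference of 0.12 ± 0.07 (SE, edgeR adjusted p = 0.667). Scap had 135.7, 133.1 and 130.2 CPM in the controls and 134.8, 140.7 and 146.0 CPM in SERTPyramid, and these overlapped. Its log2 fold difference was 0.08 ± 0.04 (SE, edgeR adjusted p = 0.689). In 6 of 31 genes (19.4%) the groups did not overlap, beside 18.9% of all genes tested. Of the 6, Apoe, Srebf1, Pmvk, Mvd and Tm7sf2 were higher in SERTPyramid, 5 of 31 genes (16.1%) beside 9.5% of all genes. Hmgcs1 was lower, 1 of 31 genes (3.23%) beside 9.38% of all genes.

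Hmgcs1 had 547.5, 553.0 and 562.9 CPM in the controls and 534.3, 533.5 and 543.2 CPM in SERTPyramid labelled female. Though its groups did not overlap, the log2 fold difference of -0.05 ± 0.04 (SE, edgeR adjusted p = 0.832) was near its error. Srebf2 had 393.1, 384.8 and 380.9 CPM in the controls and 374.2, 389.1 and 395.4 CPM in SERTPyramid, and its log2 fold difference of -0.0001 ± 0.05 (SE) was the smallest of the 31. The 95% interval of the difference lay within 1.2-fold either way, 0.26 on the log2 scale, in 28 of 31 genes. The exceptions were Idi1, Fdps and Soat1, and no interval reached beyond the 0.36 of Fdps.

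When the 6 libraries labelled female were fitted alone, 2 of the 31 genes (6.45%) passed, both higher, beside 2.43% of all 17108 genes tested (1.65% higher and 0.777% lower). They were Apoe (log2 fold change 0.14 ± 0.03 SE, edgeR adjusted p = 0.0282) and Srebf1 (0.15 ± 0.04 SE, edgeR adjusted p = 0.0481). On these libraries DESeq2 and limma voom called Apoe (adjusted p = 0.011 and 0.00906) and not Srebf1 (adjusted p = 0.132 and 0.0668). Neither gene passed in edgeR when control replicate 1, 2 or 3 or SERTPyramid replicate 2 was left out, where adjusted p was 0.0822 to 0.204 for Apoe and 0.107 to 0.188 for Srebf1. Srebf1 alone was lost without SERTPyramid replicate 1 (adjusted p = 0.124).

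Apoe is made mainly by astrocytes, and 2 of 8 astrocyte markers passed in the same fit of 6 libraries, Fgfr3 (log2 fold change 0.19) and Gfap (0.16), both higher, beside 2.43% of all genes tested. The other 6 ran from -0.12 to 0.06. The summed astrocyte markers were 3623 to 4008 CPM in controls labelled female and 3642 to 3677 CPM in SERTPyramid, and no astrocyte marker was at 0. Markers of other cells moved in that fit too. Of 5 markers of oligodendrocyte precursors 2 passed, both higher, Cspg4 (0.22, edgeR adjusted p = 0.00332) and Sox10 (0.19, edgeR adjusted p = 0.0269), and their sum was 596.5 to 601.2 CPM in controls and 617.7 to 627.1 CPM in SERTPyramid. Of 5 dentate granule markers 1 passed, C1ql2, lower (-0.33, edgeR adjusted p = 0.0483), with sums of 352.5 to 413.7 CPM in controls and 314.6 to 339.1 CPM in SERTPyramid. Of 5 red blood cell genes 1 passed, Hbb-bs, lower (-0.32, edgeR adjusted p = 0.0211), with sums of 58.4 to 67.5 CPM in controls and 44.2 to 52.9 CPM in SERTPyramid. All 5 red blood cell, 5 endothelial and 7 pyramidal markers were below 0, and 0 of the endothelial and pyramidal markers passed. All 6 choroid plexus markers were also below 0, with a median log2 fold change of -0.48, and 0 passed. Their sums were 967.8 to 1303 CPM in controls and 26.8, 717.2 and 1238 CPM in SERTPyramid. The part of any of these markers in the results for Apoe and Srebf1 was not tested.

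**Figure D2:**
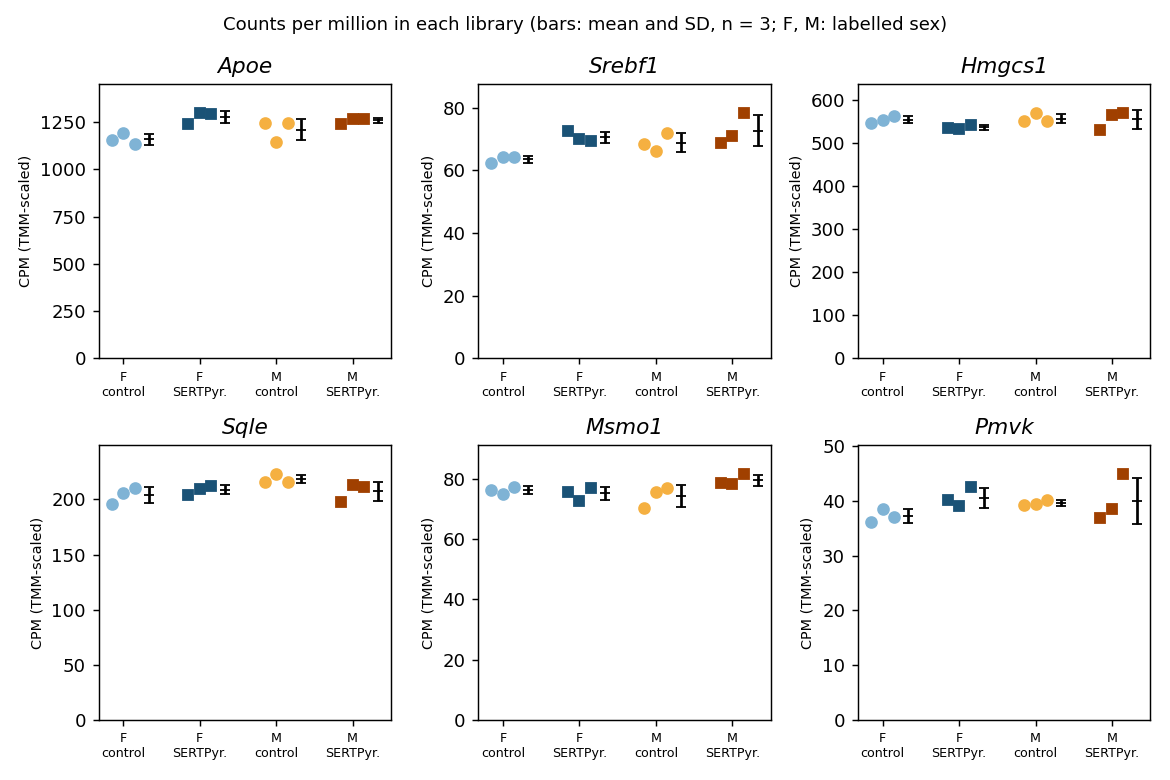
CPM, scaled by TMM, of 6 genes in every library, with the 4 groups along the horizontal axis (F and M stand for the labelled sex) and black bars for the mean and SD of 3 libraries. Apoe and Srebf1 in SERTPyramid lie above the controls among libraries labelled female (1239 to 1298 CPM against 1132 to 1190 CPM for Apoe), and they overlap among libraries labelled male.

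Among libraries labelled male, the genotypes were compared in the same way. By edgeR 0 of the 31 genes passed, beside 0% of all genes tested, and 0 of 31 had an unadjusted p under 0.05, beside 3.16% of all genes tested. DESeq2 and limma voom called 0 of the 31 too, and in the 6 libraries fitted alone edgeR called 0 (0% of all genes, with 1.86% at an unadjusted p under 0.05). Of the genes, 10 were above 0 and 21 below, with log2 fold changes from -0.10 to 0.10 and a median of -0.01, beside 0.002 for all genes tested. In 2 of 31 genes (6.45%), Msmo1 and Sqle, the groups did not overlap, beside 6.93% of all genes tested (3.67% higher and 3.26% lower).

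Msmo1, which encodes the oxidase that starts removal of sterol methyl groups, had 70.1, 75.7 and 77.0 CPM in controls labelled male and 78.5, 78.3 and 81.4 CPM in SERTPyramid. Its log2 fold difference was 0.10 ± 0.05 (SE, edgeR adjusted p = 0.999). Sqle went the other way, with 216.1, 222.7 and 216.3 CPM in the controls and 197.7, 213.0 and 211.1 CPM in SERTPyramid, a log2 fold difference of -0.08 ± 0.05 (SE, edgeR adjusted p = 0.999). These enzyme genes of 1 route thus had opposite signs, and neither passed. Among libraries labelled female Sqle had 196.3, 205.7 and 210.3 CPM in controls and 204.3, 209.4 and 212.3 CPM in SERTPyramid, and Msmo1 had 76.4, 74.8 and 77.3 CPM in controls and 75.6, 72.7 and 77.0 CPM in SERTPyramid, and both overlapped. Srebf2 had 384.7, 401.0 and 402.8 CPM in controls labelled male and 372.3, 400.1 and 360.7 CPM in SERTPyramid, a log2 fold difference of -0.07 ± 0.05 (SE).

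Acat2 had 58.4, 56.0 and 59.6 CPM in the controls labelled male and 49.8, 55.0 and 57.8 CPM in SERTPyramid, with replicate 1 lowest and the groups overlapping. Its log2 fold difference was -0.10 ± 0.06 (SE). Mvk had 55.2, 52.8 and 52.5 CPM in the controls and 47.7, 51.2 and 52.8 CPM in SERTPyramid, again with replicate 1 lowest, and a log2 fold difference of -0.08 ± 0.05 (SE). Over all 20 synthesis genes, SERTPyramid replicate 1 labelled male was the lowest of the 12 libraries, with a median of -0.07 log2 from the 12-library mean and 5 of 20 genes above it, and SERTPyramid replicate 3 labelled male was the highest, at 0.06 with 17 of 20 above. These 2 libraries of 1 group spanned all others.

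Apoe had 1245, 1144 and 1244 CPM in controls labelled male and 1242, 1267 and 1268 CPM in SERTPyramid, which overlapped, with a log2 fold difference of 0.06 ± 0.05 (SE, edgeR adjusted p = 0.999). Srebf1 had 68.4, 66.1 and 72.0 CPM in the controls and 68.9, 71.1 and 78.3 CPM in SERTPyramid, with a log2 fold difference of 0.08 ± 0.05 (SE, edgeR adjusted p = 0.999). Both differences had the sign seen among libraries labelled female. In 30 of 31 genes the 95% interval lay within 1.2-fold either way, with Fdps the exception.

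**Figure D3:**
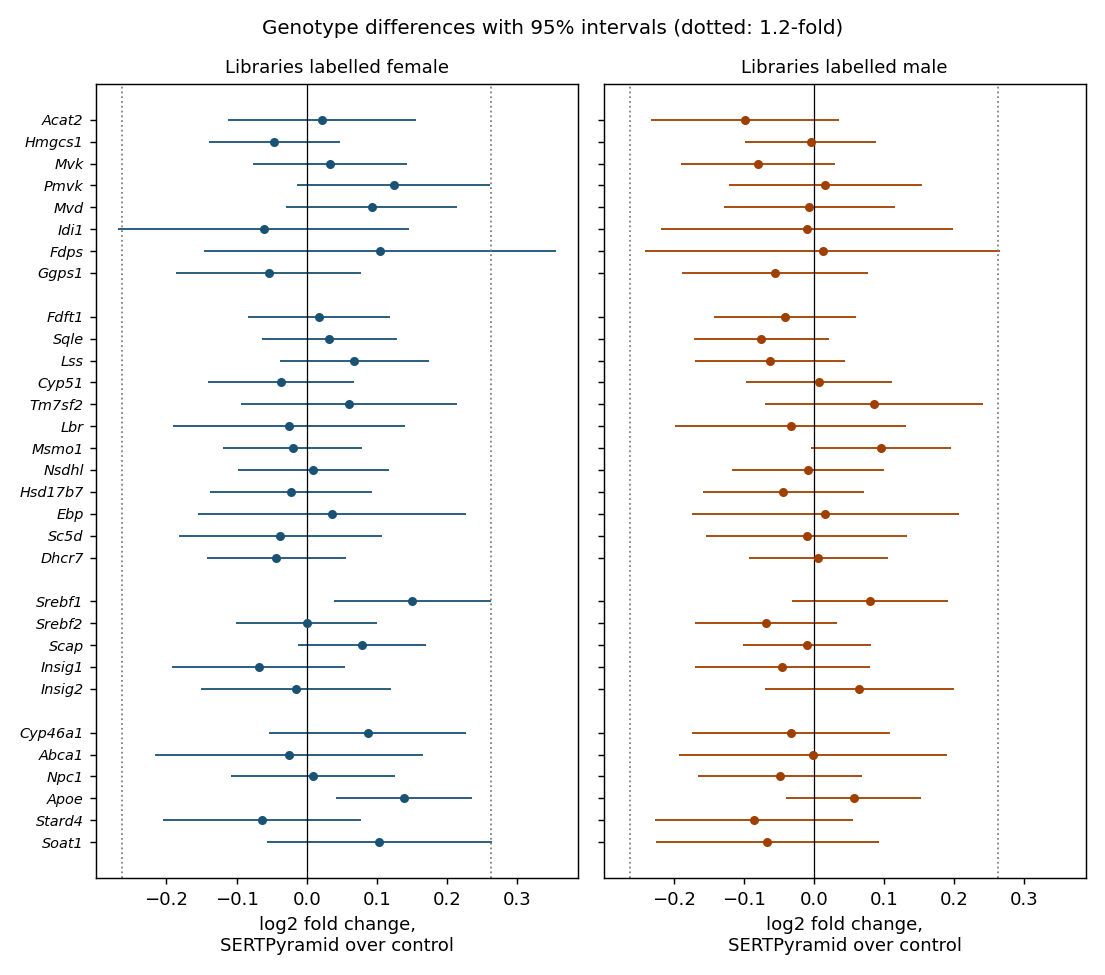
Log2 fold change of SERTPyramid over control for each of the 31 genes, grouped by role, in libraries labelled female (left) and male (right). Points are estimates of the fit of 12 libraries, bars are 95% intervals and dotted lines mark 1.2-fold; 28 intervals on the left and 30 on the right lie between the dotted lines.

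A test of the interaction compared the genotype differences of the 2 labelled sexes. In edgeR 0 of the 31 genes passed (0% of all genes tested did), 0 did in DESeq2 and limma voom, and 0 had an unadjusted p under 0.05, beside 4.45% of all genes tested. Lss, the cyclase gene, had the smallest p, with a log2 difference of 0.13 ± 0.07 (SE, edgeR adjusted p = 0.999). It had 73.0, 78.0 and 84.4 CPM in controls labelled female and 83.4, 81.9 and 81.4 CPM in SERTPyramid, so the controls held both the lowest and the highest value. Among libraries labelled male Lss had 77.7, 80.1 and 79.4 CPM in controls and 74.6, 78.0 and 74.5 CPM in SERTPyramid. Soat1 had the largest difference, 0.17 ± 0.11 (SE), with 22.7, 22.7 and 24.2 CPM in controls labelled female against 24.9, 27.0 and 22.9 CPM in SERTPyramid, and 23.3, 26.8 and 27.6 against 26.2, 23.9 and 24.3 CPM among libraries labelled male. Of the 31 genes, 6 were above 0 in both labelled sexes, 10 below in both, 11 above only among libraries labelled female and 4 above only among libraries labelled male. The intervals of this difference were wider, with 19 of 31 within 1.2-fold.

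Averaged over the labelled sexes, 0 of the 31 passed in edgeR (0% of all genes tested), DESeq2 or limma voom. Srebf1 (0.12 ± 0.04 SE, edgeR adjusted p = 0.756) and Apoe (0.10 ± 0.03 SE, edgeR adjusted p = 0.756) again had the smallest p. These were the 2 of 31 genes (6.45%) at an unadjusted p under 0.05, beside 6.49% of all genes tested. They share their libraries with the comparisons above. Next came Stard4, with a log2 fold difference of -0.07 ± 0.05 (SE). It had 47.4, 45.4 and 49.8 CPM in controls labelled female against 44.0, 45.5 and 47.0 in SERTPyramid, and 44.1, 51.8 and 52.1 CPM in controls labelled male against 42.9, 49.3 and 47.6 in SERTPyramid. Pmvk had the fourth smallest p, with 39.3, 39.4 and 40.2 CPM in controls labelled male and 36.9, 38.6 and 44.9 CPM in SERTPyramid, and an averaged log2 fold difference of 0.07 ± 0.05 (SE). In all 31 genes the 95% interval of the averaged difference lay within 1.2-fold, with half-widths of 0.06 to 0.18 on the log2 scale. The median was -0.01, beside -0.001 for all genes tested.

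The genes were then described by how they moved from library to library within groups. Over the 12 libraries, Hmgcs1 and Sqle had a Pearson r of 0.583 (permutation p = 0.0462, adjusted over 5 pairs 0.19) and a Spearman rho of 0.552 (permutation p = 0.0666, adjusted 0.333). Hmgcs1 and Insig1 had an r of 0.533 (permutation p = 0.0761, adjusted 0.19) and a rho of 0.378 (permutation p = 0.229, adjusted 0.573). Without the 2 libraries farthest from the median of Hmgcs1 these r were 0.49 and 0.523, and without control replicate 1 of both labelled sexes 0.677 and 0.545. Within libraries labelled female r was 0.0435 for Sqle and 0.831 for Insig1, and within those labelled male 0.734 and 0.85, with no adjusted permutation p under 0.201. Neither pair passed after adjustment in the pooled values.

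After each group's mean was subtracted, Hmgcs1 and Sqle had an r of 0.889 and a rho of 0.881 (exact permutation within groups, p = 0.00617 and 0.00849, adjusted 0.0231 and 0.0212). For Hmgcs1 and Insig1, r and rho were both 0.818 (exact permutation within groups, p = 0.00926 and 0.00617, adjusted 0.0231 and 0.0212). Without the 2 libraries farthest from the median, SERTPyramid replicates 1 and 3 labelled male, r was 0.854 and 0.909. Deviations were not centred anew, so replicate 2 of that group, left alone, kept a value set by the dropped libraries. These r are therefore no check free of the 2 libraries. With library totals in place of TMM, r was 0.874 for Sqle and 0.721 for Insig1 (exact permutation within groups, adjusted p = 0.0463 and 0.0502). By rho the adjusted exact p was 0.0579 for both. Without the same 2 libraries, likewise not centred anew, r with totals was 0.774 for Sqle and 0.763 for Insig1. With TMM, r within libraries labelled female was 0.87 for Sqle and 0.902 for Insig1, and within those labelled male 0.984 and 0.876. The 6 libraries in each gave no adjusted exact p under 0.185. With library totals these r were 0.787 and 0.563 (female) and 0.988 and 0.84 (male). There no adjusted exact p was under 0.0694 by r or rho. The other 3 pairs did not pass with TMM. Hmgcs1 had an r of 0.223 with Idi1, 0.146 with Srebf2 and -0.234 with Abca1 (exact permutation within groups, adjusted p = 0.761, 0.855 and 0.761). With library totals these r were 0.325, -0.293 and -0.359 (exact permutation within groups, adjusted p = 0.455, 0.688 and 0.455). The sign for Srebf2 thus depended on the scaling. With library totals the calls for Insig1 by r and rho and for Sqle by rho were thus lost. All pairs share their libraries and scaling. Of the transcript sequence of Hmgcs1, 11.6% of 50-base words occur in other annotated genes.

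Insig1 had 64.8, 65.1 and 70.9 CPM in controls labelled female, 60.7, 63.4 and 67.4 CPM in SERTPyramid, 62.8, 67.4 and 60.3 CPM in controls labelled male and 57.9, 64.4 and 62.4 CPM in SERTPyramid. SERTPyramid replicate 1 labelled male was the lowest library for both Insig1 and Hmgcs1 (529.7 CPM). In each of the other 3 groups the library highest in Hmgcs1 was the highest in Insig1. The 2 remaining SERTPyramid libraries labelled male had 566.3 and 570.0 CPM of Hmgcs1 and the controls labelled male 551.3, 569.7 and 550.5 CPM. Idi1 had 9.11, 9.51 and 9.56 CPM in controls labelled female, 8.77, 10.1 and 8.15 CPM in SERTPyramid, 9.80, 8.79 and 8.64 CPM in controls labelled male and 8.31, 9.50 and 9.17 CPM in SERTPyramid. Abca1 had 137.5, 135.3 and 130.6 CPM, then 144.7, 130.5 and 121.0 CPM among libraries labelled female, and 116.1, 135.3 and 143.4 CPM, then 135.2, 143.2 and 116.5 CPM among those labelled male, controls first. In both genes the groups overlapped.

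As a description of all members, 12 of the other 30 genes (40%) had an r above 0.5 with Hmgcs1 in group-centred values, beside 11.4% of all other genes tested. They were Sqle, Mvd (0.82), Insig1, Nsdhl (0.80), Fdft1 (0.73), Cyp51 (0.73), Stard4 (0.67), Mvk (0.67), Pmvk (0.61), Acat2 (0.61), Dhcr7 (0.56) and Fdps (0.52). Of these, 10 are synthesis genes, 1, Insig1, is a regulator, and 1, Stard4, carries sterol between membranes. Sqle ranked at the 99.9 percentile of all genes by this measure and Mvd at 99.5. For the share and the percentiles alike, the other genes were not matched for expression. Late-step genes Hsd17b7 (-0.11), Sc5d (-0.12), Ebp (-0.15) and Tm7sf2 (-0.22) and the handling genes Apoe (-0.20), Abca1 (-0.23) and Soat1 (-0.24) lay below 0, and Npc1 was the lowest at -0.60. Genes are not independent replicates, and the points share library and depth. Hmgcs1 deviated most from its group mean in SERTPyramid replicate 1 labelled male (-0.067), and next in replicate 3 of that group (0.038). The list of 12 was not repeated with libraries left out, so how far it rests on this group was not tested.

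**Figure D4:**
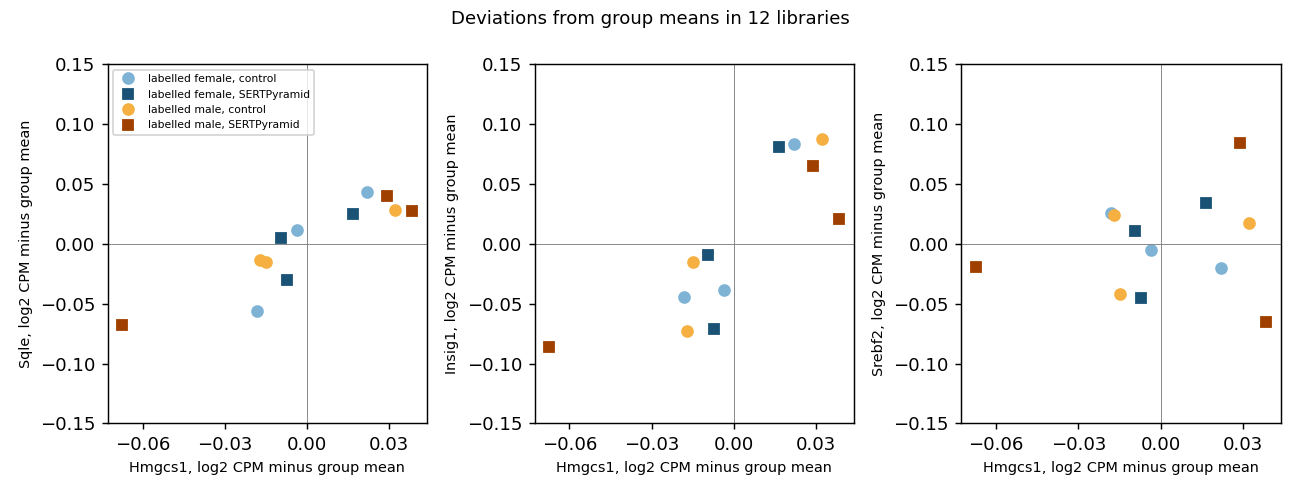
Deviation of log2 CPM from the group mean in each of 12 libraries, for Sqle, Insig1 and Srebf2 (vertical axes) against Hmgcs1 (horizontal axes), coloured by genotype and labelled sex. With TMM scaling, Sqle (r = 0.889) and Insig1 (r = 0.818) rise with Hmgcs1, whereas Srebf2 (r = 0.146) is scattered. With library totals, not drawn, the r of Srebf2 was -0.293.

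Sqle, the gene with the highest r with Hmgcs1, has no entry among the promoters used here. Hmgcs1 is set beside Insig1, among the genes of high r, and the regulator gene Srebf2. With TMM the r of Srebf2 was 0.146 (63.6 percentile of all genes), and with library totals -0.293. The 250 bases before the start sites of these 3 genes are shown, from RefSeq on GRCm38.p6. All are on the plus strand and read 5′ to 3′. Capitals mark the 2 motifs searched on both strands, TCACNCCAC, a core of the sterol regulatory element, and CCAAT, the box bound by NF-Y (its reverse strand reads ATTGG). The windows are chr13:119690101-119690350 for Hmgcs1, chr5:28071162-28071411 for Insig1 and chr15:82147019-82147268 for Srebf2.
Hmgcs1: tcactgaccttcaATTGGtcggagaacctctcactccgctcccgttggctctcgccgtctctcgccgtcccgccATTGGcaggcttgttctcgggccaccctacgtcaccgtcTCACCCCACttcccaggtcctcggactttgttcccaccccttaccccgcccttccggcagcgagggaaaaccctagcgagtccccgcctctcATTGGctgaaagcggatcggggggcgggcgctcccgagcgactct
Insig1: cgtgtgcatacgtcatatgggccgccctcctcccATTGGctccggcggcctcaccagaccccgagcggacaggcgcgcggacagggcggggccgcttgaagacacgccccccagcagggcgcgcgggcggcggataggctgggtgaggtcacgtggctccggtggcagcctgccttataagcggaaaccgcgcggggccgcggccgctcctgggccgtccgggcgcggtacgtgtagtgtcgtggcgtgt
Srebf2: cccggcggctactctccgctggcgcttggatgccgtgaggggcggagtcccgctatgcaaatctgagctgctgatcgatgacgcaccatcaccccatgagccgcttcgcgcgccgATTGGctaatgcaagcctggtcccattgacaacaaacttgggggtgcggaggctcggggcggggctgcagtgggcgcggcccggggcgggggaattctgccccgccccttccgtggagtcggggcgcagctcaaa

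In this window Hmgcs1 holds 3 CCAAT matches and 1 TCACNCCAC match, which begins 137 bases before the start site and overlaps none of the former. Insig1 and Srebf2 hold 1 CCAAT match each and 0 of TCACNCCAC. Only exact matches were counted. Words 1 base away from TCACNCCAC on either strand, such as tcaccccat in Srebf2 and gtggcgtgt in Insig1, were not. Promoters of 300 bases, 250 before to 50 after the start, were listed for 26 of the 31 genes, 36 in all, some genes having several. CCAAT was in 23 of these 36 (63.9%), beside 37.4% of all 32851 promoters listed, and in at least 1 promoter of 22 of the 26 genes. TCACNCCAC was in 1 of 36 (2.78%), beside 1.24% of all. A match is a description of letters in the window and no sign of binding.

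Other genes of sterol and lipid metabolism, 54 in 5 lists of which 53 were measured, gave 0 calls in the fit of 12 libraries, beside 0% of all genes. In each list the 2 genes with the smallest p among libraries labelled female had log2 fold differences as follows. Among 12 other genes of sterol control they were Nr1h2 (0.20), which encodes the oxysterol receptor LXR-beta, and Rnf139 (-0.14). Among 17 other transport genes they were Gramd1a (0.15), whose product moves sterol from the plasma membrane, and the lipoprotein receptor gene Scarb1 (-0.10). Of 3 measured oxysterol genes they were Cyp7b1 (-0.14 ± 0.10 SE) and Ch25h (-0.38 ± 0.37 SE), both hydroxylase genes. The difference of Ch25h was near its error. Of 12 SREBP-linked fatty acid genes they were Me1 (-0.25), the gene of an enzyme that supplies NADPH, and the elongase gene Elovl6 (-0.11). Of 9 isoprenoid branch genes they were Rabggta (0.17) and Nus1 (-0.08). Their edgeR adjusted p ran from 0.530 for Me1 to 0.838 for Ch25h.

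Among libraries labelled female fitted alone, 4 of these genes passed, beside 2.43% of all genes, and they are named because they passed. Pcyt2, a phospholipid synthesis gene, was higher at 0.19 (edgeR adjusted p = 0.0152), and Me1 was lower at -0.25 (edgeR adjusted p = 0.0231). Nr1h2 was higher at 0.20 (edgeR adjusted p = 0.0364) and Gramd1a at 0.15 (edgeR adjusted p = 0.0354). The 4 calls were not repeated with libraries left out. Among libraries labelled male fitted alone, 0 of the genes passed, and the same 4 genes had log2 fold differences of 0.06, 0.04, -0.02 and -0.004.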

How the data were processed

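The authors deposited raw counts per gene with Ensembl identifiers for 12 libraries. The build is mm10 per the submitters' processing notes, and the TruSeq kit took 250 ng of total RNA per the labels' protocols. For the aligner, annotation and counting settings the sources used here give nothing. Exon lengths came from GENCODE M21 on GRCm38, with overlapping exons merged. The 31 genes, all lists and the tests were chosen with earlier results of these data known. Of 52634 genes, 17631 passed filterByExpr. They were scaled by TMM and tested in 4 groups of 3 libraries with the quasi-likelihood F test of edgeR 4.0.16 (R 4.3.3), adjusted over all genes tested (Benjamini-Hochberg) at 0.05. An SE was derived from the estimate and its F statistic. Correlations used log2 CPM (prior count 2) and 100000 resamples or every permutation within groups. Values by library are given for the 4 smallest p of each comparison, any gene called, the highest gene of each role and the genes of the 5 pairs. Alternatives used DESeq2 1.42.0, limma 3.58.1, other filters and scalings, and left-out libraries. Totals ran from 18747249 to 25522347, at which 3 counts equal 0.160 to 0.118 CPM. Libraries of 1 group differed by more than sampling noise (chi-square over degrees of freedom 2.39 to 12.6).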

Additional observations from a re-analysis of the deposited data

How the results depend on the processing

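Of the 31 genes, 0 were called in each comparison of the 12-library fit under DESeq2, limma voom, RLE scaling, both other low-count filters, an adjusted p of 0.1, without control replicate 1 of both labelled sexes and without each of the 12 libraries (lowest and highest 0). The libraries labelled female fitted alone gave 2. Chosen after seeing the data, that fit gave 2 without SERTPyramid replicate 1 or 3, 1 with DESeq2, 1 with limma voom, 2 with a replicate block and 0 without any 1 of the other 4 libraries. Same-numbered libraries of different groups correlated at -0.225 to 0.234 (2 of 18 pairs above 0.1). Such values cannot settle whether the numbers mark shared litters or handling, and libraries were not treated as paired. With the replicate block 0 of the 31 genes were called in the 12-library fit. Over all genes, leaving out the low-count filter gave 103 calls among libraries labelled female, 5 among those labelled male, 14 for the interaction and 66 for the average, each against 0, and without SERTPyramid replicate 2 labelled male the average gave 144. Over left-out libraries the median log2 fold difference of the 31 genes ranged from 0.002 to 0.02 (female), from -0.03 to 0.002 (male), from 0.0191 to 0.0631 (interaction) and from -0.01 to 0.002 (averaged), and the interaction median was 0.0628 without control replicate 1 of both. Signs changed, by more than 1 SE, for genes that had not passed. Sc5d among libraries labelled female was 0.0495 without control replicate 1 of both (interaction 0.1201) and 0.0450 in the 6 libraries without their control replicate 1, and its range over left-out libraries was -0.0843 to 0.0493. That range was -0.0721 to 0.0544 for Lbr among libraries labelled female, -0.0719 to 0.0753 for Pmvk and -0.0752 to 0.0701 for Mvd among those labelled male. The cause was not tested. By longest transcript the levels moved by over 1 SD in 28 of 31 genes (by over 1.5 times in 7, with changes of order, Apoe reaching 871 CPM per kilobase), and the order had a Spearman correlation of 0.957 with that by merged exons. Depth limits Fdps and Idi1 most.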

Other observations

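Cyp46a1, the neuronal cholesterol hydroxylase gene, differed within 1 group. It had 56.9 CPM in SERTPyramid replicate 1 labelled female and 70.2 and 69.2 CPM in the other 2, the lowest and the 2 highest values of the 12 libraries, against 59.1, 60.2 and 65.3 CPM in the controls. In the libraries labelled female fitted alone it differed by 0.09 ± 0.08 on the log2 scale (SE, edgeR adjusted p = 0.736), and without SERTPyramid replicate 1, a choice made after its values were seen, 0.18 ± 0.05 (SE, edgeR adjusted p = 0.0425). That library is the one whose value goes against the difference. In the fit of 12 libraries without it the difference was 0.18 ± 0.06 (SE, edgeR adjusted p = 0.616), which did not pass.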
